A study of Mus musculus with 24 samples.

Results

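Translation initiation factors were followed in mouse Th1 effector CD4+ T cells over 4 h of restimulation with antibodies to CD3 and CD28. The members were all genes of the deposited expression table whose symbol begins with Eif and a digit from 1 to 6, leaving out the Eif2ak kinases. This rule found 45 genes among the 9420 genes of the table. They comprise 4 genes of eIF1 and eIF1A, 3 of eIF2, 5 of eIF2B, Eif2a and Eif2d, 13 of eIF3, 9 of the cap complex eIF4F and its cofactors, 3 eIF4E-binding proteins, the exon junction helicase Eif4a3, 3 late factors and 2 eIF5A genes. Eif1, Eif2s3x, Eif3j1 and Eif4a1, which belong to the same complexes, were not found under these symbols among the 9420 genes. The counts and summed shares given here therefore hold no entry for them.

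Initiation is the step at which the small ribosomal subunit is brought to an mRNA, finds a start codon and is joined by the large subunit. eIF2 carries the initiator tRNA and is recharged with GTP by eIF2B, eIF1A and eIF3 act on the small subunit, and eIF4E, eIF4G and eIF4A bind the cap and unwind the leader. T cells increase protein synthesis when they are activated, and the supply and activity of these factors is one of the points at which that increase is known to be controlled.

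The cells came from DO11.10 mice, which carry a transgenic T cell receptor, as peripheral CD4+ T cells isolated with beads and turned into Th1 effectors. Restimulated cells received plate-bound antibody to hamster immunoglobulin with anti-CD3 at 1 µg/ml and anti-CD28 at 2.5 µg/ml, and cells taken at 0 h were the baseline. Newly transcribed RNA carried 4-thiouridine (4sU), given at 200 µM for 1 h, and was sequenced in duplicate at 0, 1 and 4 h and once at 2 h and at 3 h. Total RNA was sequenced in duplicate at 0 and 4 h and once at 1 h and at 2 h. Ribosome-protected fragments (RP, the footprints of translating ribosomes) were sequenced in duplicate at 0, 1 and 4 h and once at 0.5 h and at 2 h. Cells at 0 and 0.5 h were also labelled with 500 µM 4sU for 0.5 h, with 1 library per time. The labels give no age and name no animal or culture behind a replicate, so a p-value covers the spread between the sequenced libraries, which may be technical.

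Values were FPKM, fragment counts scaled to gene length and library size, so each level is a share of its library and not an amount per cell. In bulk libraries of this kind, fewer cells with an RNA and less RNA per cell cannot be told apart. Low FPKM steps gave the depth of the 8 RP libraries, between 8.9 and 26.2 M reads, and of total RNA 0 h replicate 2, at 4.87 M reads, while the depth of the others is unknown. Cd4 and Cd3e, which define the labelled cell type, were present in every library, with Cd4 between 45.2 and 127 FPKM over the 4sU and total RNA libraries. In 4sU RNA Cd4 had 45.2 and 51.1 FPKM at 4 h, against 77.9 and 82.9 FPKM at 0 h. The Th1 genes Ifng and Tbx21 differed between replicates 1 and 2 in 4sU RNA. Ifng had 5211 and 737 FPKM at 1 h and 7580 and 2368 FPKM at 4 h, against 101 and 45.4 FPKM at 0 h. Tbx21 had 357 and 212 FPKM at 1 h, against 140 and 146 FPKM at 0 h. The 4 CD8 T cell genes listed, all 4 in the table, summed to 302 FPKM in total RNA of replicate 1 at 0 h, against 19.3 FPKM in replicate 2. Most of the larger sum was Gzma, at 215 FPKM in replicate 1 and 4.42 FPKM in replicate 2, while Cd8a had 23.5 and 3.78 FPKM. The 4 B cell genes in the table, of 5 listed, summed to 1.84 and 2.04 FPKM in 4sU RNA at 4 h, against 17.3 and 4.19 FPKM at 0 h. The part of such cells in the results was not tested. The total RNA library at 1 h stood apart for several members, as described with them.

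The initiation factors took up a larger share of newly made RNA, of footprints and of total RNA at 4 h than at 0 h, given here as a description without a test. Together the 45 genes made up 1.10% and 1.13% of the summed FPKM in 4sU RNA at 4 h, against 0.577% and 0.560% at 0 h. Their share of total RNA was 1.18% and 1.31% at 4 h, against 0.9001% and 1.06% at 0 h. Their share of footprints was 1.13% and 0.989% at 4 h, against 0.489% and 0.611% at 0 h. In each of the kinds of library both libraries at 4 h lay above both at 0 h.

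Each gene was tested with limma on log2(FPKM + 1) over all genes of a kind of library, and a gene was called at a Benjamini-Hochberg adjusted p below 0.05. Since a pseudocount of 1 was added, the fold changes of genes with low FPKM are understated. In 4sU RNA at 4 h against 0 h, 25 of the 45 members were called, all of them higher, where 33.3% of all 9278 genes tested were called and 14.4% were called higher. The median change of the members was 0.82 on the log2 scale, against -0.16 for all genes. Of all genes tested, 1334 went up and 1755 went down past the threshold, a split that became 1645 higher and 1374 lower after median-of-ratios scaling, which moved the median of all genes by 0.15. With the replicate block 32 members were called, 31 higher and 1 lower, where 58.7% of all genes were called. The count of called members was 6 with 4sU 0 h replicate 2 left out, 9 with replicate 1 of 0 h left out and 12 with replicate 1 of 4 h left out. Eif1a, Eif2b3, Eif3b, Eif4e and Eif5a were called in every fit that left out 1 library, and each other call was lost in at least 1 of them.

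In footprints at 4 h against 0 h, 18 members were called, all higher, where 25.0% of all 9312 genes tested were called and 12.1% were called higher. Their median change was 0.59, against -0.10 for all genes. With the replicate block 27 members were called, 26 higher and 1 lower, where 48.0% of all genes were called. The count was 6 without RP 0 h replicate 1, 4 without RP 4 h replicate 1, 10 without RP 4 h replicate 2 and 13 without RP 0 h replicate 2 or either RP 1 h library. The single libraries at 0.5 h and 2 h were not left out. Eif1a, Eif2b3, Eif3f and Eif3g were called in every such fit, and each other call was lost in at least 1 of them.

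In total RNA at 4 h against 0 h, 6 members were called, all higher, where 13.5% of all 9078 genes tested were called and 6.47% were called higher. These were Eif1a, Eif2s1, Eif2b3, Eif2b4, Eif3g and Eif4e, and all 6 were also called in 4sU RNA and in footprints. The median change of the members was 0.35, against -0.10 for all genes, and the 587 genes called higher and 637 called lower became 783 and 549 after median-of-ratios scaling. With the replicate number as a block, 19 members were called in total RNA, 18 of them higher and 1 lower, where 39.9% of all genes were called. Leaving out 1 library gave 1 called member without total RNA 4 h replicate 1, 2 without total RNA 0 h replicate 1 and 3 without replicate 2 of either time, and Eif1a was called in all of these fits.

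The 25 members called in 4sU RNA and the 18 called in footprints shared 15. Those called in 4sU RNA and not in footprints were Eif1ad, Eif1ax, Eif3c, Eif3e, Eif3i, Eif3l, Eif4ebp1, Eif4g1, Eif5a and Eif6. Eif3k, Eif4a2 and Eif5b were called in footprints and not in 4sU RNA. A call in one kind and not in another is no test of a difference between the kinds, which is given further on as an interaction. Without the replicate block, 28 members were called in at least 1 kind of library at 4 h against 0 h, and 16 were called in no comparison. Some of these 16 were called with the block, as given with them.

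**Figure D1:**
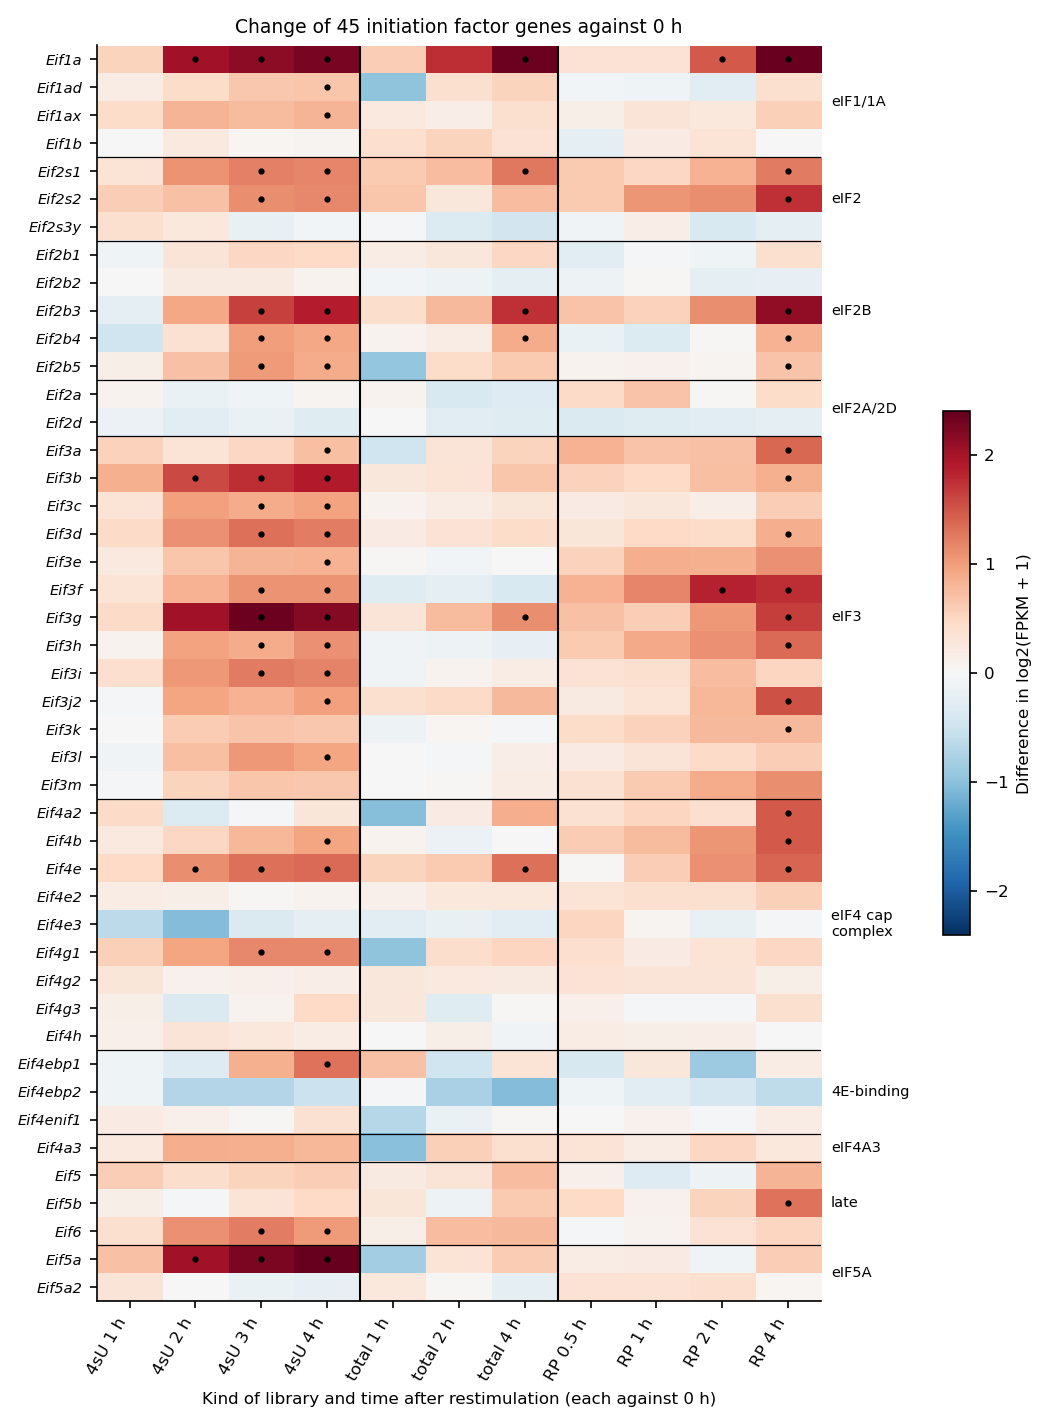
Difference in log2(FPKM + 1) against 0 h for the 45 initiation factor genes (rows, by complex) in 4sU RNA at 1, 2, 3 and 4 h, total RNA at 1, 2 and 4 h and footprints (RP) at 0.5, 1, 2 and 4 h (columns), with red for higher and blue for lower. Black dots mark the limma calls, which number 25 in 4sU RNA, 6 in total RNA and 18 in footprints at 4 h.

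Before 4 h, most calls of members were in 4sU RNA, the only kind sequenced at 3 h, so these counts do not compare the kinds. At 2 h, sampled in every kind, 4 members were called in 4sU RNA, 2 in footprints and 0 in total RNA. The shares of all genes called there were 7.56%, 4.93% and 1.02%. Comparisons within a kind share their 0 h libraries. In 4sU RNA no member was called at 1 h (limma), 6 had an unadjusted p below 0.05, and 0.183% of all genes were called. At 2 h 4 members were called higher, Eif1a, Eif3b, Eif4e and Eif5a, where 7.56% of all genes were called and 3.87% called higher. At 3 h 17 members were called higher, where 20.1% of all genes were called and 9.41% called higher. With the replicate number as a block 3 members were called at 1 h, 20 at 2 h and 26 at 3 h, all higher except Eif4e3, which was lower at 2 h, where 10.6%, 31.0% and 42.9% of all genes were called. Without either 4sU 0 h library no member was called at 2 or 3 h, and without either 4sU 1 h library 11 were called at 3 h. The median change of the members was 0.23, 0.54, 0.80 and 0.82 at 1, 2, 3 and 4 h.

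In footprints no member was called at 0.5 h or at 1 h (limma), with 4 and 9 members at an unadjusted p below 0.05 and 0.0% and 0.14% of all genes called. Eif1a and Eif3f were called at 2 h, where 4.93% of all genes were called and 2.96% called higher, and the median change at 0.5, 1, 2 and 4 h was 0.33, 0.31, 0.38 and 0.59. The early medians depended on the 0 h library used. Without RP 0 h replicate 1 they were 0.10 at 0.5 h and 0.10 at 1 h, and without RP 0 h replicate 2 they were 0.39 and 0.42. With the block the counts were 0 at 0.5 h, 1 at 1 h (Eif3f) and 12 at 2 h, where 0.0322%, 1.97% and 19.4% of all genes were called. Without any 1 of the RP libraries at 0 h or 4 h no member was called at 2 h, and without either at 1 h 1 member was called. In total RNA no member was called at 1 h or 2 h (limma), with 6 and 3 members at an unadjusted p below 0.05 and 0.0% and 1.02% of all genes called, the second with 0.958% called higher. The block gave 4 members called lower at 1 h and 1 called higher at 2 h, Eif1a, where 10.5% and 8.07% of all genes were called.

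Promoters of the members were read for 2 short sequences, because genes that move together may share them and because both are known from genes of the translation machinery. The first was CACGTG, the E-box to which Myc and related factors can bind, which reads the same on both strands. The second was a run of at least 6 pyrimidines counted from a C within 5 bases of the annotated start, whatever stands before it, the form of the 5′ terminal oligopyrimidine tract. RefSeq promoters, each 300 bases from 250 before to 50 after a start on GRCm38.p6, were found for 35 of the 45 members. The other 10, which were read for neither sequence, were Eif1a, Eif2b3, Eif3e, Eif3h, Eif3i, Eif3j2, Eif4e3, Eif4ebp1, Eif4g2 and Eif6. CACGTG occurred in 9 of the 35, or 25.7%, against 12.4% of the 7562 genes of the expression table with a promoter. The 9 genes were Eif1b, Eif3a, Eif3f, Eif3k, Eif4e, Eif4g1, Eif4h, Eif5a and Eif5a2. Of these, Eif1b, Eif4h and Eif5a2 were called in no comparison without the replicate block. A pyrimidine run at the start occurred in 6 of the 35, or 17.1%, against 12.4% of those 7562 genes, in Eif2b2, Eif2b5, Eif2s3y, Eif3f, Eif3l and Eif4g1. A match describes these letters only and does not show that a factor was bound.

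Windows of 46 bases around the E-box are shown 5′ to 3′ on the strand of the gene, with the E-box in capitals. They are given for members called in 4sU RNA or footprints without the replicate block, and for 3 not called without it. For Eif5a, Eif4g1 and Eif5a2, which have further matches, 1 window is shown, and the window of Eif3a, whose match lies after the start, is not shown. Eif4e and Eif5a have more than 1 annotated start, and the distances printed for them count from 1 of these only. The Eif5a window also lies in another promoter of that gene, at another distance from its start. They lie at chr3:138527020-138527065 and chr3:138527184-138527229 on the plus strand for Eif4e, chr11:69921435-69921480 on the minus strand for Eif5a, chr7:108934327-108934372 on the plus strand for Eif3f, chr7:28981907-28981952 on the minus strand for Eif3k and chr16:20672653-20672698 on the plus strand for Eif4g1. For the members not called without the block they lie at chr9:120492562-120492607 on the plus strand for Eif1b, chr5:134639480-134639525 on the minus strand for Eif4h and chr3:28781140-28781185 on the plus strand for Eif5a2.
Eif4e (E-box at -228 from the start): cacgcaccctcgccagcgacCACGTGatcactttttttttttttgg
Eif4e (E-box at -64 from the start): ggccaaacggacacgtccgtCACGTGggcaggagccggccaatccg
Eif5a (E-box at -185 from the start): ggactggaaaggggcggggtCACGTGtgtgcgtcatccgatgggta
Eif3f (E-box at -68 from the start): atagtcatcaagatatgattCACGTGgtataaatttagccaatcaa
Eif3k (E-box at -44 from the start): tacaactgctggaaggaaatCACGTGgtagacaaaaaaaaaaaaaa
Eif4g1 (E-box at -54 from the start): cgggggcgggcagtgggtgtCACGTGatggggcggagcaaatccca
Eif1b (E-box at -24 from the start): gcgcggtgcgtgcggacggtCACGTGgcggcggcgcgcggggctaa
Eif4h (E-box at -96 from the start): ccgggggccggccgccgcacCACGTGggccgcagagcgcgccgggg
Eif5a2 (E-box at -117 from the start): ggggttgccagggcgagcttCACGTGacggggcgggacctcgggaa

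Windows of 35 bases that begin 15 bases before the annotated start are shown for 3 members with a pyrimidine run, in capitals, and for Eif4b. In Eif4b no run beginning with a C within 5 bases of the annotated start was found. Its window does hold pyrimidine stretches farther from the start, such as tcttccc, which the search did not count. They lie at chr7:108934400-108934434 for Eif3f, chr15:79075208-79075242 for Eif3l, chr16:20498802-20498836 for Eif2b5 and chr15:102073758-102073792 for Eif4b, all on the plus strand. The capitals start at a C within 5 bases of the start, and in Eif2b5 and Eif3l further pyrimidines stand directly before them, so the capitals do not give the full length of the pyrimidine stretch there.
Eif3f (start): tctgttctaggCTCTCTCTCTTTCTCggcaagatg
Eif3l (start): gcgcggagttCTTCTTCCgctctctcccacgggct
Eif2b5 (start): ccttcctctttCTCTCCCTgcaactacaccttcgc
Eif4b (start): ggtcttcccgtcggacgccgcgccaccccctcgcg

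Among the factors that act on the scanning small subunit, Eif1a was higher in every kind of library. Eif1a encodes eIF1A, which with eIF1 keeps the small subunit open for scanning and helps to select the start codon. In 4sU RNA it had 32.0 and 26.9 FPKM at 0 h, 58.45 and 31.8 at 1 h, 122 at 2 h, 134 at 3 h and 133 and 160 at 4 h. In total RNA it had 13.5 and 16.2 FPKM at 0 h, 22.9 at 1 h, 52.5 at 2 h and 87.8 and 71.8 at 4 h. In footprints it had 60.95 and 81.7 FPKM at 0 h, 90.6 at 0.5 h, 88.2 and 90.8 at 1 h, 197 at 2 h and 371 and 370.03 at 4 h. The 4 h libraries lay above the 0 h libraries in all 3 kinds, and from 2 h every value exceeded every 0 h value of its kind. The change at 4 h against 0 h was 2.28 ± 0.31 in 4sU RNA (log2, SE; limma adjusted p = 0.0048), 2.35 ± 0.24 in total RNA (adjusted p = 0.0049) and 2.38 ± 0.21 in footprints (adjusted p = 0.0043), the largest of the 45 members in total RNA and in footprints.

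The other genes of this group had smaller changes. Eif1ax, a second gene for eIF1A, rose in 4sU RNA to 12.3 and 10.9 FPKM at 4 h, against 6.48 and 5.76 FPKM at 0 h, a change of 0.82 ± 0.18 (limma adjusted p = 0.0171). Its footprints were 418 and 338 FPKM at 4 h, against 187 and 339 FPKM at 0 h, and these overlapped. Eif1ad, which encodes a protein with an eIF1A-like domain, rose in 4sU RNA to 42.8 and 36.4 FPKM at 4 h, against 27.5 and 21.8 FPKM at 0 h. That call, with a limma adjusted p of 0.045, was lost in each of the 6 fits that left out 1 library. Eif1b, a relative of eIF1, stayed between 64.2 and 77.0 FPKM over the 8 4sU libraries, and its change at 4 h was 0.06 ± 0.17 in 4sU RNA and -0.0013 ± 0.25 in footprints.

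eIF2 brings the initiator tRNA to the ribosome. Eif2s1, its alpha subunit and the target of the Eif2ak kinases, rose in all 3 kinds of library. Its 4sU RNA was 34.3 and 26.6 FPKM at 0 h, 45.6 and 31.7 at 1 h, 64.4 at 2 h, 70.7 at 3 h and 79.35 and 61.0 at 4 h. Its total RNA was 33.6 and 33.45 FPKM at 0 h, 52.0 at 1 h, 56.5 at 2 h and 104 and 64.9 at 4 h. Footprints were 173 and 163 FPKM at 0 h, 259.5 at 0.5 h, 247 and 226 at 1 h, 299 at 2 h and 426 and 374 at 4 h, so that every library after 0 h lay above both 0 h libraries in footprints. The changes at 4 h were 1.18 ± 0.26 in 4sU RNA, 1.27 ± 0.29 in total RNA and 1.25 ± 0.19 in footprints (limma adjusted p = 0.0178, 0.0338 and 0.00964).

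Eif2s2, the beta subunit, rose in 4sU RNA to 12.7 and 17.1 FPKM at 4 h, against 5.51 and 6.64 FPKM at 0 h, and in footprints to 122 and 137 FPKM at 4 h, against 24.5 and 56.9 FPKM at 0 h. Its change was 1.16 ± 0.21 and 1.76 ± 0.45 (limma adjusted p = 0.0103 and 0.0367). Its total RNA was 19.1 and 20.6 FPKM at 4 h, against 9.35 and 14.1 FPKM at 0 h, a change of 0.74 that was called with the replicate block (adjusted p = 0.00445) and not without it (adjusted p = 0.1035). Eif2s3y, the Y-linked gene for the gamma subunit, had 3.16 and 4.40 FPKM in 4sU RNA at 4 h, against 3.49 and 4.52 FPKM at 0 h, and was not called. At 1 h it had 4.95 and 6.18 FPKM, and its difference at 4 h against 1 h, -0.46 ± 0.14 with the block (adjusted p = 0.0238), was not called without it. In total RNA it was 7.76 and 9.02 FPKM at 4 h, against 10.45 and 13.15 FPKM at 0 h, a difference of -0.44 ± 0.23 that was not called.

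The subunits of eIF2B, the exchange factor that reloads eIF2 with GTP, differed in their calls, and the differences between subunits were not tested. Eif2b3, the gamma subunit of its catalytic part, went up steeply after 1 h. Its 4sU RNA was 2.56 and 2.39 FPKM at 0 h, 1.97 and 1.93 at 1 h, 5.63 at 2 h, 9.83 at 3 h and 13.8 and 10.1 at 4 h, so the 1 h libraries were the lowest. Its total RNA was 2.31 and 1.5 FPKM at 0 h, 2.83 at 1 h, 3.96 at 2 h and 11.1 and 6.76 at 4 h. Footprints were 16.1 and 15.05 FPKM at 0 h, 25.65 at 0.5 h, 22.75 and 23.7 at 1 h, 35.15 at 2 h and 90.7 and 56.4 at 4 h. Its change at 4 h was 1.88 ± 0.20 in 4sU RNA, 1.75 ± 0.29 in total RNA and 2.13 ± 0.25 in footprints (limma adjusted p = 0.00304, 0.0162 and 0.00598).

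Eif2b4, the delta subunit, and Eif2b5, the catalytic epsilon subunit, rose by less. Eif2b4 had 30.2 and 23.1 FPKM in 4sU RNA at 4 h, against 13.97 and 12.9 FPKM at 0 h, while the 1 h libraries had 8.32 and 10.51 FPKM. The change of Eif2b4 was 0.93 ± 0.20 in 4sU RNA, 0.88 ± 0.23 in total RNA and 0.83 ± 0.20 in footprints (limma adjusted p = 0.0178, 0.0497 and 0.0315). The footprint call of Eif2b4 was lost in all 6 fits that left out 1 library and its total RNA call in 4 of 5. Eif2b5 had 65.4 and 49.8 FPKM in 4sU RNA at 4 h, against 32.6 and 28.4 FPKM at 0 h (change 0.89 ± 0.20, limma adjusted p = 0.0187), and its footprint change of 0.69 ± 0.19 (adjusted p = 0.0445) was lost whichever library was left out.

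Without the block, the alpha and beta subunits of eIF2B were not called in any kind of library. Eif2b1 had 34.3 and 25.9 FPKM in 4sU RNA at 4 h, against 22.2 and 20.4 FPKM at 0 h, a change of 0.47 ± 0.19 that was called with the block (adjusted p = 0.021) and not without it (adjusted p = 0.101). Eif2b2 stayed between 22.2 and 34.05 FPKM over the 8 4sU libraries, between 15.2 and 19.6 FPKM in total RNA and between 62.4 and 86.2 FPKM in footprints. Its differences at 4 h against 0 h were 0.09 ± 0.23, -0.23 ± 0.22 and -0.20 ± 0.21. Eif2a and Eif2d encode factors that can deliver tRNA to the ribosome without eIF2, and neither was called. Eif2a had 9.72 and 9.64 FPKM in 4sU RNA at 4 h, against 8.46 and 9.96 FPKM at 0 h, and Eif2d had 6.23 and 5.27 FPKM, against 7.03 and 7.38 FPKM.

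**Figure D2:**
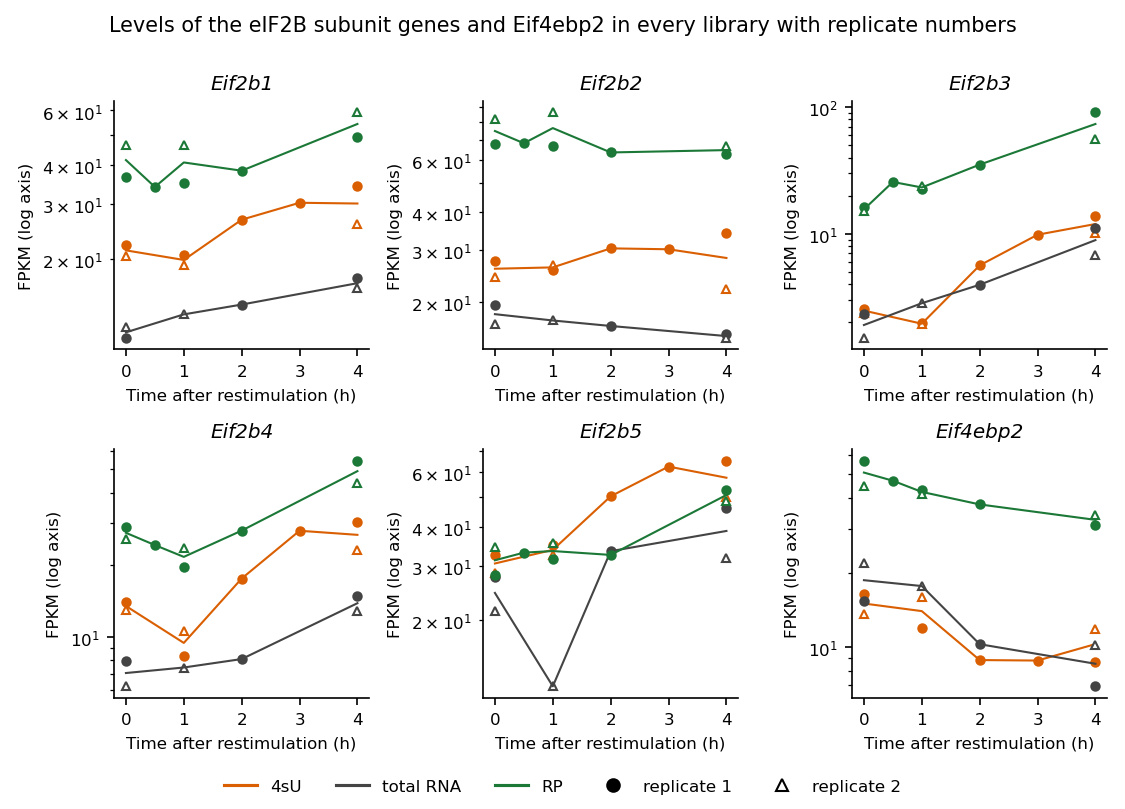
FPKM (log axis) of the 5 eIF2B subunit genes and Eif4ebp2 by time after restimulation (h) in 4sU RNA (orange), total RNA (grey) and footprints (green). Circles are replicate 1, triangles replicate 2 and lines join the means; Eif2b3 reached 13.8 and 10.1 FPKM in 4sU RNA at 4 h, while Eif2b2 stayed between 22.2 and 34.05 FPKM.

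eIF3, the largest initiation factor, links the small subunit to the mRNA and to eIF4G. In 4sU RNA all 13 eIF3 genes had a higher mean at 4 h than at 0 h and 11 of them were called, with a median change of 0.99 on the log2 scale, where 33.3% of all genes were called. In footprints all 13 again had a higher mean and 8 were called, with a median change of 1.10, where 25.0% of all genes were called. In total RNA 10 had a higher mean, 1 was called, and the median change was 0.17, where 13.5% of all genes were called. With the replicate block, Eif3k (adjusted p = 0.00963) and Eif3m (adjusted p = 0.00604) were also called in 4sU RNA, and Eif3c, Eif3e, Eif3i, Eif3l and Eif3m in footprints (adjusted p between 0.00403 and 0.0367), so that all 13 were called in both, where 58.7% and 48.0% of all genes were called. In total RNA the block called 4 eIF3 genes higher, Eif3a, Eif3b, Eif3g and Eif3j2, where 39.9% of all genes were called.

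Eif3g and Eif3b, an RNA-binding subunit and a scaffold subunit, had the largest changes of eIF3 in 4sU RNA. Eif3g had 41.5 and 27.1 FPKM in 4sU RNA at 0 h, 60.1 and 36.3 at 1 h, 139 at 2 h, 176 at 3 h and 200.2 and 124 at 4 h. It was the eIF3 gene called in total RNA, with 119 and 96.0 FPKM at 4 h, against 50.8 and 47.1 FPKM at 0 h, and in footprints it had 357 and 304 FPKM at 4 h, against 101 and 107 FPKM at 0 h. The changes were 2.20 ± 0.37, 1.11 ± 0.24 and 1.65 ± 0.19 (limma adjusted p = 0.00837, 0.0307 and 0.00555), and the total RNA call was lost in 4 of 5 fits that left out 1 library. Eif3b had 106 and 100.5 FPKM in 4sU RNA at 4 h, against 30.2 and 23.6 FPKM at 0 h, a change of 1.91 ± 0.21 (limma adjusted p = 0.00324). In total RNA the level was 101 and 84.96 FPKM at 4 h, against 51.45 and 65.4 FPKM at 0 h, which did not overlap and was called with the block (adjusted p = 0.0079) and not without it (adjusted p = 0.124).

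Eif3f and Eif3h rose in 4sU RNA and in footprints and Eif3e in 4sU RNA, while none of them was called in total RNA. Eif3f and Eif3h encode the MPN-domain subunits, and Eif3e another subunit of the complex. Eif3f had 49.8 and 37.1 FPKM in 4sU RNA at 4 h, against 22.3 and 17.6 FPKM at 0 h (change 1.08 ± 0.22, limma adjusted p = 0.0155). Its total RNA was 108 and 75.3 FPKM at 0 h, 73.7 at 1 h, 76.2 at 2 h and 62.4 and 77.5 at 4 h, a difference of -0.37 ± 0.28 at 4 h that was not called. Its footprints were 93.1 and 108 FPKM at 0 h, 181 at 0.5 h, 232 and 221 at 1 h, 365 at 2 h and 368 and 327 at 4 h, and every library after 0 h lay above both 0 h libraries. The footprint change at 4 h was 1.78 ± 0.19 (limma adjusted p = 0.0053), and footprints of Eif3f were also called at 1 h with the block (change 1.17 ± 0.17, adjusted p = 0.0282).

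Eif3h showed 400.25 and 320.1 FPKM in footprints at 4 h, against 113 and 169.6 FPKM at 0 h (change 1.36 ± 0.27, limma adjusted p = 0.0189), and 168 and 209 FPKM in total RNA at 4 h, against 206 and 222 FPKM at 0 h. Of its sequence words of 31 bases, 29.4% occur in another annotated gene, so some of its reads may be shared. The same holds for 31.2% of the words of Eif4a3, 26.2% of those of Eif3m and 14.9% of those of Eif4a2. Eif3e showed 161 and 181 FPKM in footprints at 4 h, against 59.5 and 105 FPKM at 0 h, a change of 1.10 ± 0.32 that was called with the block (adjusted p = 0.00403) and not without it (adjusted p = 0.0554). Total RNA gave 173 and 149.6 FPKM at 4 h, against 151 and 169 FPKM at 0 h.

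In 4sU RNA at 4 h against 0 h, the differences of the remaining eIF3 genes lay between 0.65 (Eif3m) and 1.23 (Eif3d). Eif3a, the largest scaffold subunit, had 310.2 and 241 FPKM in footprints at 4 h, against 97.1 and 114 FPKM at 0 h (change 1.37 ± 0.21, limma adjusted p = 0.00987). Eif3d, a subunit that can itself bind the cap of some mRNAs, had 201 and 149.8 FPKM in 4sU RNA at 4 h, against 74.3 and 72.4 FPKM at 0 h (change 1.23 ± 0.24, adjusted p = 0.0129). Eif3m, the eIF3 gene with the smallest change in 4sU RNA, had 44.7 and 34.95 FPKM at 4 h, against 25.5 and 24.1 FPKM at 0 h. Eif3j2 was called higher in 4sU RNA and in footprints, but 94.9% of its 31-base words occur in other genes, mostly in Eif3j1, so its values may mix both genes and are uncertain.

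**Figure D3:**
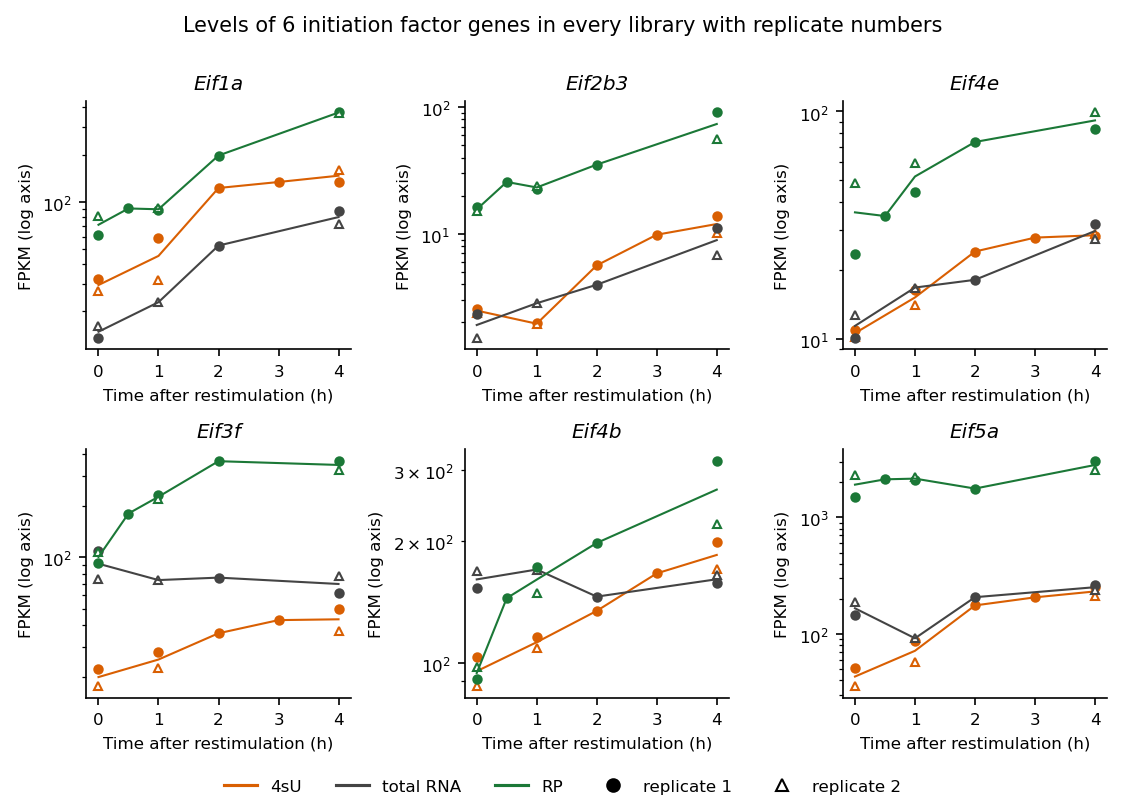
FPKM (log axis) of Eif1a, Eif2b3, Eif4e, Eif3f, Eif4b and Eif5a by time after restimulation (h) in 4sU RNA (orange), total RNA (grey) and footprints (green), with circles for replicate 1, triangles for replicate 2 and lines through the means. Eif1a, Eif2b3 and Eif4e were higher at 4 h than at 0 h in all 3 kinds, whereas total RNA of Eif3f was 62.4 and 77.5 FPKM at 4 h, against 108 and 75.3 FPKM at 0 h.

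In the cap complex, Eif4e, the cap-binding protein, rose in all 3 kinds of library. Its 4sU RNA was 11.0 and 10.2 FPKM at 0 h, 16.4 and 14.05 at 1 h, 24.2 at 2 h, 27.9 at 3 h and 28.3 and 28.8 at 4 h, with every library from 1 h on above both 0 h libraries. Its total RNA was 10.1 and 12.7 FPKM at 0 h, 16.8 at 1 h, 18.2 at 2 h and 32.1 and 27.5 at 4 h. Footprints were 23.6 and 48.4 FPKM at 0 h, 34.7 at 0.5 h, 44.3 and 59.2 at 1 h, 73.4 at 2 h and 83.7 and 99.0 at 4 h. The changes at 4 h were 1.35 ± 0.16, 1.32 ± 0.24 and 1.399 ± 0.36 (limma adjusted p = 0.00369, 0.0187 and 0.0379), and Eif4e is one of the members whose promoter windows with CACGTG are printed above.

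Its paralogues were not called without the block. Eif4e2, a cap-binding protein that acts mainly in repression, stayed between 17.4 and 20.4 FPKM over the 8 4sU libraries, and its footprints were 174 and 163 FPKM at 4 h, against 109 and 118 FPKM at 0 h. That footprint change, 0.56 ± 0.19, was called with the block (adjusted p = 0.0278) and not without it (adjusted p = 0.076). Eif4e3, a further cap-binding protein, had 27.7 and 16.6 FPKM in 4sU RNA at 0 h, 16.4 and 11.1 at 1 h, 9.94 at 2 h, 16.6 at 3 h and 17.1 and 18.9 at 4 h, so the 2 h library was the lowest. Its difference at 2 h against 0 h, -1.22 ± 0.26 with the block (adjusted p = 0.013), was not called without it.

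Of the eIF4G genes, Eif4g1, the main scaffold that joins eIF4E, eIF4A and eIF3, rose in 4sU RNA to 109 and 98.3 FPKM at 4 h, against 52.0 and 40.1 FPKM at 0 h (change 1.16 ± 0.23, limma adjusted p = 0.014). Its footprints were 111 and 88.6 FPKM at 4 h, against 62.7 and 77.85 FPKM at 0 h, a difference of 0.50 ± 0.21 that was not called. Eif4g2, a relative that lacks the eIF4E-binding site, stayed between 79.6 and 107 FPKM in 4sU RNA and between 179.8 and 244 FPKM in footprints. Eif4g3, the second canonical scaffold, had 12.0 and 18.4 FPKM in 4sU RNA at 4 h, against 9.39 and 11.5 FPKM at 0 h, and its change of 0.48 was called with the block (adjusted p = 0.0272) and not without it (adjusted p = 0.261).

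The helicase Eif4a2 and the helicase cofactor Eif4b stood out in footprints. Eif4a2 had 177 and 118 FPKM in footprints at 4 h, against 64.2 and 41.3 FPKM at 0 h (change 1.47 ± 0.30, limma adjusted p = 0.0199), with 132 and 157 FPKM in 4sU RNA at 4 h, against 111 and 124 FPKM at 0 h (change 0.29 ± 0.22, not called). Total RNA of Eif4a2 was 119 and 74.45 FPKM at 4 h, against 55.25 and 46.9 FPKM at 0 h, a change of 0.88 ± 0.30 that was called with the block (adjusted p = 0.000507) and not without it (adjusted p = 0.0928). Eif4b had 91.15 and 97.3 FPKM in footprints at 0 h, 144 at 0.5 h, 172 and 148 at 1 h, 198 at 2 h and 316 and 219.8 at 4 h, so every library after 0 h lay above both 0 h libraries. Its total RNA stayed between 146 and 169.9 FPKM, and its 4sU RNA was 199 and 170.1 FPKM at 4 h, against 103 and 87.3 FPKM at 0 h. The changes of Eif4b were 0.95 ± 0.22 in 4sU RNA, 0.0024 ± 0.24 in total RNA and 1.47 ± 0.24 in footprints (limma adjusted p = 0.0208, 0.997 and 0.0111). Eif4h, the other cofactor, was the second most abundant member in footprints, between 566 and 723 FPKM, and its difference at 4 h was 0.01 ± 0.23. Eif4a3, the helicase of the exon junction complex, had 121 and 88.3 FPKM in 4sU RNA at 4 h, against 67.1 and 52.5 FPKM at 0 h, a change of 0.79 that was called with the block (adjusted p = 0.00252) and not without it (adjusted p = 0.0664).

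Eif4ebp1 and Eif4ebp2, which encode repressors that hold eIF4E away from eIF4G until mTOR phosphorylates them, differed in direction in 4sU RNA. Eif4ebp1 had 15.9 and 20.85 FPKM at 0 h, 12.6 and 22.6 at 1 h, 14.5 at 2 h, 33.6 at 3 h and 43.95 and 48.9 at 4 h. It rose by 1.30 ± 0.29 at 4 h (limma adjusted p = 0.0192), a call kept in 2 of 6 fits that left out 1 library. Its footprints differed between replicates more than between times, at 45.6 and 122 FPKM at 4 h, against 41.3 and 104 FPKM at 0 h. Eif4ebp2 had 8.67 and 11.9 FPKM in 4sU RNA at 4 h, against 16.3 and 13.6 FPKM at 0 h, 6.93 and 10.2 FPKM in total RNA, against 15.3 and 21.95 FPKM, and 31.2 and 34.2 FPKM in footprints, against 56.8 and 44.8 FPKM. Both 4 h libraries lay below both 0 h libraries in all 3 kinds. Its differences of -0.51 ± 0.23, -1.04 ± 0.28 and -0.61 ± 0.19 were not called (limma adjusted p = 0.132, 0.055 and 0.061). With the replicate block it was called lower in all 3 (limma adjusted p = 0.0459, 5.59e-05 and 0.0216), where 58.7%, 39.9% and 48.0% of all genes were called. The block fit of total RNA rests on 1 residual degree of freedom. It was the member called lower at 4 h against 0 h with the block in each kind. Eif4enif1, which carries eIF4E between nucleus and cytoplasm, had 18.9 and 27.5 FPKM in 4sU RNA at 4 h, against 16.5 and 18.7 FPKM at 0 h, and was not called.

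Among the late factors, which act at start codon recognition and subunit joining, Eif6 was called in 4sU RNA and Eif5b in footprints at 4 h against 0 h. With the block all 3 were called higher in total RNA and in footprints, and Eif5 (adjusted p = 0.0265) and Eif6 in 4sU RNA. In total RNA Eif5 had 75.7 and 63.8 FPKM at 4 h, against 46.3 and 36.5 FPKM at 0 h, Eif5b had 6.16 and 7.64 FPKM, against 3.65 and 4.5 FPKM, and Eif6 had 40.7 and 37.5 FPKM, against 21.6 and 23.3 FPKM. These total RNA changes of 0.74, 0.64 and 0.78 had limma adjusted p of 0.0918, 0.108 and 0.0624 without the block and 0.0031, 0.0139 and 0.00242 with it. Eif5, the GTPase-activating protein of eIF2, had 177 and 135 FPKM in footprints at 4 h, against 103 and 74.35 FPKM at 0 h, and its change of 0.81 ± 0.24 was called with the block (adjusted p = 0.00603) and not without it (adjusted p = 0.0586). Against 1 h, at which its footprints were 74.9 and 67.2 FPKM, the change was 1.11 ± 0.24 and was called (limma adjusted p = 0.0375). Eif5b, the GTPase that joins the subunits, had 94.8 and 62.7 FPKM in footprints at 4 h, against 30.7 and 30.8 FPKM at 0 h (change 1.30 ± 0.24, limma adjusted p = 0.0166). Its 4sU RNA was 3.76 and 6.95 FPKM at 4 h, against 3.27 and 3.51 FPKM at 0 h. Eif6, which keeps the large subunit from joining too early, rose in 4sU RNA to 76.2 and 53.5 FPKM at 4 h, against 31.7 and 30.5 FPKM at 0 h (change 1.02 ± 0.22, limma adjusted p = 0.0177).

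Eif5a had the largest change of all members in 4sU RNA. It encodes eIF5A, the hypusine-bearing factor that helps ribosomes through difficult stretches and to terminate. Its 4sU RNA was 50.8 and 35.7 FPKM at 0 h, 86.5 and 57.25 at 1 h, 176 at 2 h, 206 at 3 h and 253 and 211 at 4 h, above both 0 h libraries at every later time. Its total RNA was 144 and 188 FPKM at 0 h, 92.0 at 1 h, 207 at 2 h and 264 and 241 at 4 h. With 1509 and 2308 FPKM at 0 h, 2119.7 at 0.5 h, 2079 and 2220.4 at 1 h, 1766 at 2 h and 3066 and 2561 at 4 h it was the most abundant member in footprints. The change at 4 h was 2.41 ± 0.30 in 4sU RNA (limma adjusted p = 0.00385), 0.61 ± 0.26 in total RNA (adjusted p = 0.164, and 0.0114 with the block) and 0.59 ± 0.32 in footprints (adjusted p = 0.22). Its paralogue Eif5a2 stayed between 1.73 and 3.35 FPKM in 4sU RNA and between 13.2 and 23.9 FPKM in footprints. In 4sU RNA it had 1.73 and 1.95 FPKM at 4 h, against 3.35 and 2.82 FPKM at 1 h, a difference of -0.52 ± 0.15 with the block (adjusted p = 0.0203) that was not called without it.

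The total RNA library at 1 h, which is replicate 2, had the lowest total RNA value of Eif5a at 92.0 FPKM, of Eif4g1 at 31.05 FPKM, of Eif4a3 at 21.1 FPKM, of Eif4a2 at 24.6 FPKM, of Eif2b5 at 12.3 FPKM and of Eif1ad at 8.14 FPKM. It also had 55 genes of the table at 0, the most among the 14 4sU and total RNA libraries with 1 h of label or none. Next came total RNA 0 h replicate 2 with 40. The 4 members called lower at 1 h with the block, Eif4g1, Eif4enif1, Eif4a3 and Eif5a, rest on the total RNA library at 1 h alone. As the one library of its time it adds no residual to the fit, so the count of 6 members called in total RNA at 4 h against 0 h without it is no check on its values.

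Footprints per RNA were compared as RP FPKM divided by total RNA FPKM in the same replicate. A level of this ratio depends on the gene lengths behind both FPKM values, so it was read between times more than between genes. All 13 eIF3 genes had a higher ratio at 4 h than at 0 h in both replicates, and in all 13 both 4 h ratios lay above both 0 h ratios. Over the 45 members the counts were 26 and 18, and over all 8378 genes 30.1% and 19.6% met these conditions. For 4sU RNA divided by total RNA the counts were 29 and 27, where 26.2% and 21.9% of all genes met them. Eif3f had ratios of 5.90 and 4.21 at 4 h, against 0.859 and 1.44 at 0 h, and Eif3h had 2.39 and 1.53, against 0.549 and 0.763. Eif4b had 2.01 and 1.34 at 4 h, against 0.596 and 0.578 at 0 h, and Eif3e had 0.932 and 1.21, against 0.394 and 0.619. The median ratio of all genes was 2.61 and 2.87 at 4 h, against 2.55 and 2.82 at 0 h, so these 4 genes were below the median at 0 h and Eif3f was above it at 4 h.

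**Figure D4:**
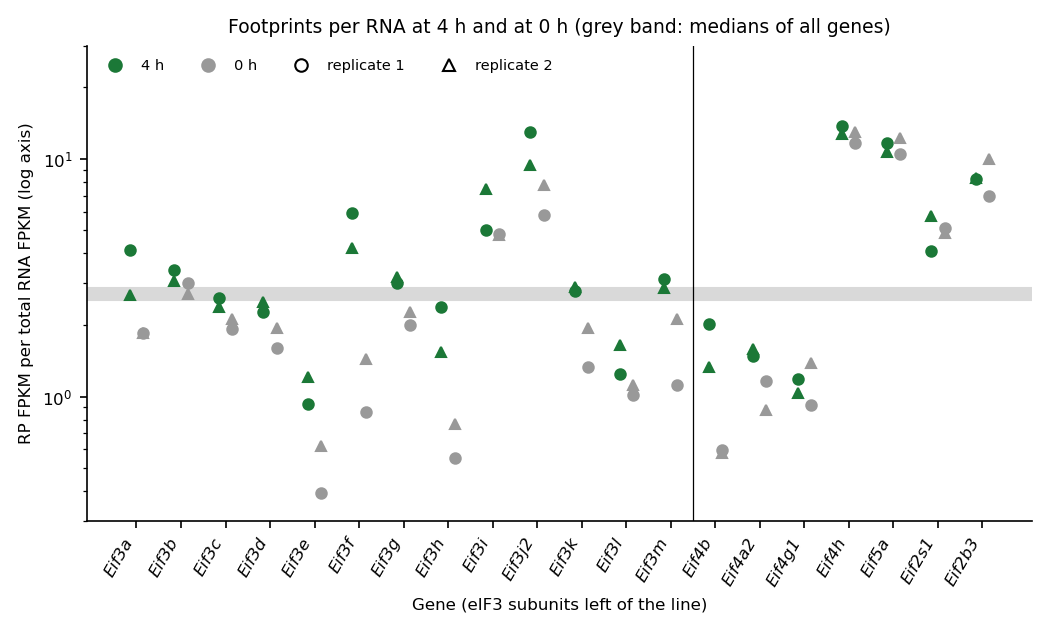
RP FPKM divided by total RNA FPKM (log axis) for the 13 eIF3 genes and 7 other initiation factors at 4 h (green) and 0 h (grey), with circles for replicate 1 and triangles for replicate 2 and a grey band for the medians of all genes. Every eIF3 gene had both green points above both grey points, and Eif3f, at 5.90 and 4.21 against 0.859 and 1.44, had the widest gap.

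Tested as an interaction, the footprint change minus the total RNA change at 4 h against 0 h had a median of 0.24 over the 45 members and 0.75 over eIF3. No member was called (limma), 7 had an unadjusted p below 0.05, and 0.0% of all 9021 genes tested were called. With the block no member was called either, where 0.0333% of all genes were called. The estimates that differed most from 0 were 2.15 ± 0.33 for Eif3f (adjusted p = 0.244), 1.56 ± 0.36 for Eif3h (adjusted p = 0.855), 1.47 ± 0.31 for Eif4b (adjusted p = 0.787) and 1.09 ± 0.42 for Eif3e (adjusted p = 0.9999). The 6 members called in all kinds, Eif1a, Eif2s1, Eif2b3, Eif2b4, Eif3g and Eif4e, had estimates between -0.06 (Eif2b4) and 0.54 (Eif3g).

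The same comparison of 4sU RNA with total RNA had a median of 0.33 over the members and 0.80 over eIF3. No member was called (limma), 12 had an unadjusted p below 0.05, and 0.0% of all 9033 genes tested were called. With the block 4 members were called, where 1.97% of all genes were called. These were Eif5a at 1.80 ± 0.31 (adjusted p = 0.0175), Eif3f at 1.45 ± 0.27 (adjusted p = 0.0226), Eif3h at 1.29 ± 0.26 (adjusted p = 0.0272) and Eif3b at 1.24 ± 0.26 (adjusted p = 0.0329). For these 4 genes, in the order given, the 4sU changes were 2.41, 1.08, 1.09 and 1.91, while the total RNA changes were 0.61, -0.37, -0.19 and 0.67 on the log2 scale.

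**Figure D5:**
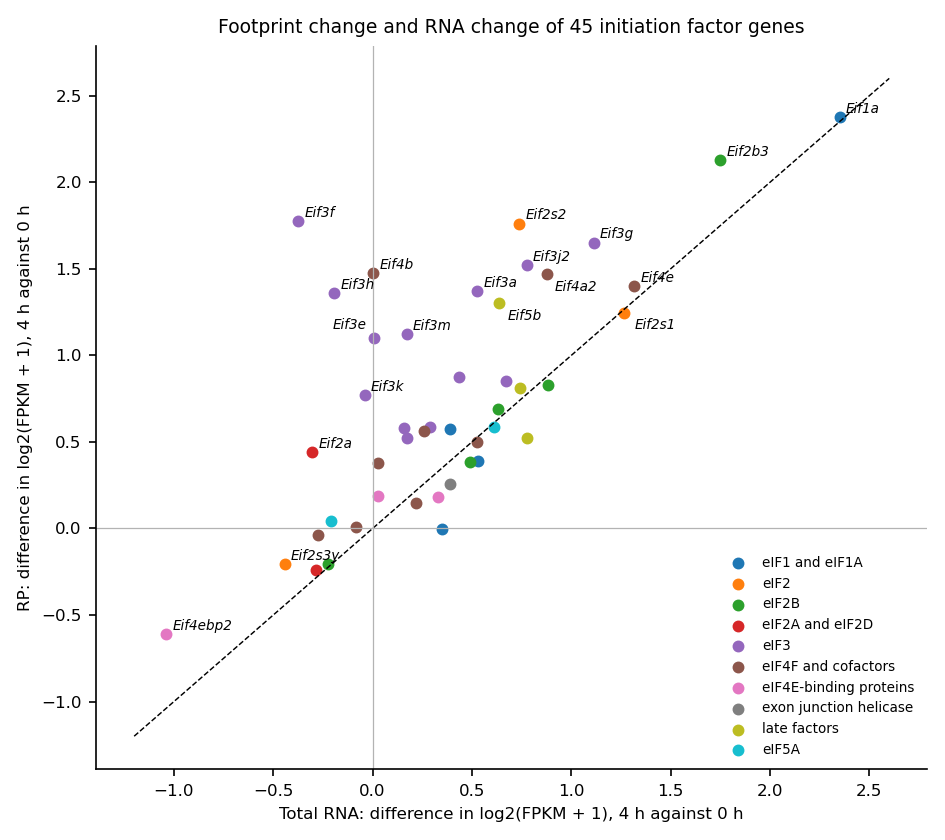
Difference in log2(FPKM + 1) at 4 h against 0 h in footprints (vertical axis) and in total RNA (horizontal axis) for the 45 initiation factor genes, coloured by complex, with a dashed line where both are equal. Eif1a (2.35 in total RNA and 2.38 in footprints) lies on the line, and Eif3f (-0.37 and 1.78), Eif4b (0.0024 and 1.47) and Eif3h (-0.19 and 1.36) lie farthest above it.

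Between 1 h and 4 h, 13 members rose in 4sU RNA, where 26.7% of all genes were called and 11.9% called higher, and 7 rose in footprints, where 14.1% of all genes were called and 7.65% called higher. The largest changes were those of Eif2b3, 2.12 ± 0.20 in 4sU RNA (limma adjusted p = 0.00519) and 1.58 ± 0.25 in footprints (adjusted p = 0.0182), and of Eif1a, 1.73 ± 0.31 (adjusted p = 0.0137) and 2.04 ± 0.21 (adjusted p = 0.0116). With the block 30 members were called in 4sU RNA, 28 higher and 2 lower (Eif2s3y and Eif5a2), and 14 were called higher in footprints, where 54.1% and 36.7% of all genes were called. In 4sU RNA 2 members were called with 4 h replicate 1 left out and 3 with 1 h replicate 2 left out. In footprints none was called without RP 1 h replicate 1, RP 1 h replicate 2 or RP 4 h replicate 1, and 1 was called without RP 4 h replicate 2.

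Within each replicate, 40 and 38 of the 45 members were higher at 4 h than at 0 h in 4sU RNA, and 37 were higher in both, where 34.4% of all genes were. In total RNA these counts were 34 and 31, with 27 in both, where 33.1% of all genes were. In footprints they were 39 and 38, with 37 in both, where 35.4% of all genes were.

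A list of 27 other genes that act on initiation, among them the eIF2 kinases, poly(A)-binding proteins and mTOR pathway genes, had called genes in both directions. In 4sU RNA at 4 h against 0 h, 7 of the 26 tested were called higher and 4 lower, with a median change of 0.01 on the log2 scale, where 33.3% of all genes were called. In total RNA 2 were called up and 3 down (8 and 5 with the block), where 13.5% of all genes were called (39.9% with the block). In footprints 7 of 25 were called higher and 4 lower, where 25.0% of all genes were called. Pabpc4, a poly(A)-binding protein, had the largest rise in 4sU RNA, 2.05 ± 0.15 (limma adjusted p = 0.00183). Paip2, an inhibitor of poly(A)-binding proteins, had the largest fall, -1.59 ± 0.28 (adjusted p = 0.00923). In footprints the extremes were Pabpc1, the main poly(A)-binding protein, at 2.54 ± 0.23 (limma adjusted p = 0.00442), and Pdcd4, an inhibitor of the helicase eIF4A, at -1.46 ± 0.34 (adjusted p = 0.0308). Total RNA of Pabpc1 differed by -0.15 ± 0.31 and was not called.

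The libraries labelled with 500 µM 4sU covered the first 0.5 h after restimulation. With 1 library per group there is no replicate check and no test. Of the 42 members with a mean of at least 5 FPKM, 27 were higher at 0.5 h than at 0 h, where 3223 of all 7155 such genes were higher. The median difference of these members was 0.19 on the log2 scale, against -0.03 over all such genes. Eif5 differed most, with 111 FPKM at 0.5 h, against 60.7 FPKM at 0 h. Eif4a2 had 192 FPKM at 0.5 h, against 127 FPKM at 0 h, and Eif4g2 had 119.7 FPKM, against 79.5 FPKM. Eif1a and Eif4e, which rose later in 4sU RNA, had 20.5 and 7.15 FPKM at 0.5 h, against 18.4 and 7.31 FPKM at 0 h. No member was higher or lower by a factor of 2 or more, while 0.755% of all genes were higher and 0.196% lower by that factor.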

How the data were processed

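Values were the deposited FPKM per gene and library, which the authors made from sequencing reads; per the submitters' processing notes featureCounts (Subread 1.4.6-p3) and GRCm38 were used. Not given in the sources used here are the aligner, annotation, gene lengths and strand setting. Of 9420 gene IDs, 9412 were given a symbol. Low FPKM steps, taken as whole within 0.1 read for values up to 8 reads, gave the depth of 9 of 24 libraries, so no count test was run.

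Genes with a mean of at least 1 FPKM in a kind of library were tested as log2(FPKM + 1) with limma 3.58.1 in R 4.3.3, in one fit over all times of a kind, with a mean-variance trend, Benjamini-Hochberg adjustment over all genes and a threshold of 0.05. Residual degrees of freedom were 3 for 4sU RNA, 2 for total RNA, 3 for footprints and 5 for the interactions. With the replicate block they were 2, 1, 2 and 4 in that order, so block p-values in total RNA rest on 1. The fit was tested on simulated data with independent noise in each library. That test does not cover deviations shared by libraries of the same replicate number. Groups with 1 library take their spread from the others.

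Replicate numbers paired the libraries: deviations of same-numbered libraries from their group means correlated in all 28 pairs of groups (r between 0.307 and 0.79, above the 0.1 required). This comes from the data, as the labels do not say what a number marks. The replicate block is therefore given beside the counts of called members. It is also given beside many, but not all, results of single members whose call it changes.

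The members and lists were chosen with earlier results of these data known. In each complex the members with the largest and smallest change in 4sU RNA, those called in total RNA and paralogues were described, and others, such as Eif3e, Eif3f, Eif3h and Eif4b, were named after their values were seen. Alternatives were a pseudocount of 0.1, no filter, median-of-ratios scaling, no variance trend, the replicate block, each library left out in turn and, chosen after seeing the data, leaving out the total RNA library at 1 h.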

Additional observations from a re-analysis of the deposited data

How the results depend on the processing

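No direction of a called value reversed under any alternative. With the replicate block the counts of called members were 3, 20, 26 and 32 in 4sU RNA at 1, 2, 3 and 4 h against 0 h and 30 at 4 h against 1 h. They were 4, 1 and 19 in total RNA at 1, 2 and 4 h, 1, 12 and 27 in footprints at 1, 2 and 4 h, 14 in footprints at 4 h against 1 h, and 4 for 4sU RNA against total RNA. The block changed no other count. Without the variance trend 1 member was called in total RNA at 2 h against 0 h. Leaving out 1 library gave 0 to 5, 0 to 18 and 6 to 24 called members in 4sU RNA at 2, 3 and 4 h, 2 to 17 at 4 h against 1 h, 1 to 6 in total RNA at 4 h, 0 to 1 and 4 to 13 in footprints at 2 and 4 h, and 0 to 5 at 4 h against 1 h. The other counts were 0 throughout. The cause was not tested. Where a library left out leaves 1 in its group, that library is assumed to vary like the other groups. Depth is unknown for 15 of 24 libraries, so no counting error can be given for them.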
